A study of Rattus norvegicus with 18 samples.

Results

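The machinery that copies DNA before a cell divides was followed in neonatal rat cardiomyocytes through 37 genes, taken as every probe whose platform gene symbol equals a listed name. Of these, 28 had a probe with values on the larger of 2 array designs, and 20 of the 28 were also on the smaller design. The 2 designs together held 12198 named genes. Where a gene had several probes, the one with the highest mean intensity stood for it. E2f2, Cdc6, Cdt1, Orc1, Mcm3, Gins2, Pole, Rfc3 and Rfc4 were not analysed here. Prim2, a subunit of primase, lay at the lowest intensity used on 6 of 12 arrays of the larger design and was not tested, which left 27 genes tested.

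Cardiomyocytes, which contract to pump blood, were taken from ventricles of day 1 rats (n = 24 ventricles), purified on Percoll density gradients and kept for 24 h in cardiac medium. From 18 dishes, 6 were extracted at that point as time zero and had no treatment. The other 12 received hesc medium to a dilution of 50%, which was either unconditioned or conditioned by stem cells, and 3 of each kind were extracted at 24 h and 3 at 48 h, with FBS kept at 5% and HS at 10% throughout. The title of the series asks whether factors secreted by stem cells induce proliferation in these cells. No dish stayed in undiluted cardiac medium beyond time zero, so time in culture and the change of medium cannot be told apart in any comparison with time zero, which medium comparisons at one time avoid. The labels name no separate harvests, so the p-values reflect no more than the spread among these samples, which may be technical.

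Before S phase the origin recognition complex, with Cdc6 and Cdt1, loads the Mcm2 to Mcm7 helicase onto DNA, a step called licensing that geminin (Gmnn) blocks once S phase has begun. Cdc45, the GINS complex and Mcm10 then switch the helicase on, DNA polymerase alpha with primase starts each strand, and the sliding clamp Pcna holds the polymerases that extend it. Many of these genes are targets of E2F transcription factors, which the retinoblastoma protein restrains in cells that do not cycle. Rat cardiomyocytes make a last round of DNA synthesis in the first days after birth and then largely leave the cell cycle.

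Promoters of 31 of the 37 genes were matched to RefSeq sequences on the rat assembly GRCr8, in windows from 250 bases before to 50 after the gene start. Cdc6, E2f1, E2f2, Mcm4, Orc1 and Rrm2 had no entry. A search on both strands for the E2F words TTTGGCGC, TTTCCCGC, TTTCGCGC and TTTGCCGC, which can overlap each other, found at least 1 in 15 of the 31 genes (48.4%) and in 651 of all 27457 genes with such a window (2.37%). The word CCAAT, on either strand, was in 19 of 31 (61.3%) and in 39.6% of all genes. A match describes letters and is not a site shown to be bound. The 250 bases before the start are shown for 4 of the 5 genes that passed the test against time zero, because they differ in these words, with matches in capitals and the strand of the gene written 5′ to 3′.
Mcm5, chr19:13488563-13488812, plus strand: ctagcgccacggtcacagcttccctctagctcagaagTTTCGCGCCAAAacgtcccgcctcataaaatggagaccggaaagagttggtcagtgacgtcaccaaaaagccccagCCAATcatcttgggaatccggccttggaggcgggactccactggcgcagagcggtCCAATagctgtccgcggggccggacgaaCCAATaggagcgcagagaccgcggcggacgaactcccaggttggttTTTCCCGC
Uhrf1, chr9:1222936-1223185, plus strand, 1 of 3 listed starts: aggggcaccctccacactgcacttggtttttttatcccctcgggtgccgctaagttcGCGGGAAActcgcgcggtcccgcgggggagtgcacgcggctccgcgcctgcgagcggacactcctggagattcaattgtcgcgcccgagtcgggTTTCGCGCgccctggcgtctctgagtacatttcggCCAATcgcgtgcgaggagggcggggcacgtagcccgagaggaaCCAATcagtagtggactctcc
Gmnn, chr17:40729584-40729833, plus strand: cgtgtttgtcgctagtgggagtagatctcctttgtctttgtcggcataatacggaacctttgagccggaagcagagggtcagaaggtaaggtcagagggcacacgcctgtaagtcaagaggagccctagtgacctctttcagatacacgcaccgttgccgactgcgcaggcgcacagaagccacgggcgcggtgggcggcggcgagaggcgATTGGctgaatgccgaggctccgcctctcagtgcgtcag
Orc6, chr19:37938857-37939106, minus strand: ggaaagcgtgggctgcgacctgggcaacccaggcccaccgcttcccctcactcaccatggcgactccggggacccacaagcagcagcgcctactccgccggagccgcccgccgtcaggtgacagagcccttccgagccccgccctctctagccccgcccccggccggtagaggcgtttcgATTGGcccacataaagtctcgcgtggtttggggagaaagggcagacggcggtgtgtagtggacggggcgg
The Mcm5 window held 3 E2F words, at -213, -209 and -8 bases from the start, of which the first and the second share letters, and 3 CCAAT words at -137, -82 and -54. The Uhrf1 window shown held 2 E2F words, at -193 and -99, and 2 CCAAT words. The windows of the other 2 Uhrf1 starts held no E2F word, and 1 and 2 CCAAT words. In Gmnn the only E2F word lay 39 bases after the start, outside the stretch shown, and in Orc6 none was found. Both had 1 CCAAT word on the opposite strand.

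Levels are median-scaled intensities, that is, deposited intensities after each array was brought to the same median. Changes are log2 differences ± SE from limma's fit over the 12 arrays of the larger design, given relative to the median of all 23694 probes tested. That median was 0.19 for unconditioned and 0.18 for conditioned medium at 24 h against time zero, 0.01 and 0.16 at 48 h. Between the media it was 0.09 with both times pooled, 0.01 at 24 h and 0.18 at 48 h. A call needs an adjusted p under 0.05 (Benjamini-Hochberg, all probes) and tests the change before this median is taken off, which favours increases where the median is positive.

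On 3 of the 12 arrays, namely replicates 4 and 5 of time zero and replicate 2 of unconditioned medium at 48 h, the upper quartile of intensity divided by the lower one was 22.4 to 25.7, against 38.7 to 47.8 on the other 9. The replication genes moved with these arrays, as did the median of all tested probes. That median, as log2 relative to the time zero mean, was 0.25, -0.39, -0.20 and 0.30 on time zero replicates 3 to 6. On the medium arrays it ran from -0.19, on unconditioned 48 h replicate 2, to 0.26. All 27 had their lowest time zero value on replicate 4 (15 genes) or replicate 5 (12 genes), and 26 were lower on replicate 2 than on replicate 3 of unconditioned medium at 48 h. The averages that follow do not have the median of all probes taken off. Averaged over the 27 genes, the log2 level relative to the time zero mean was 0.27, -0.35, -0.24 and 0.32 on the time zero arrays. It was 0.60 and 0.77 in unconditioned medium and 0.48 and 0.54 in conditioned medium at 24 h, and 0.37 and 0.92 in unconditioned medium and 0.72 and 0.77 in conditioned medium at 48 h. After quantile normalization, which gives all arrays one distribution, the time zero arrays ran from -0.16 to 0.11 and the medium arrays from 0.34 to 0.71. Every medium array was therefore above every time zero array in this average, by median scaling and by quantile normalization alike.

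**Figure D1:**
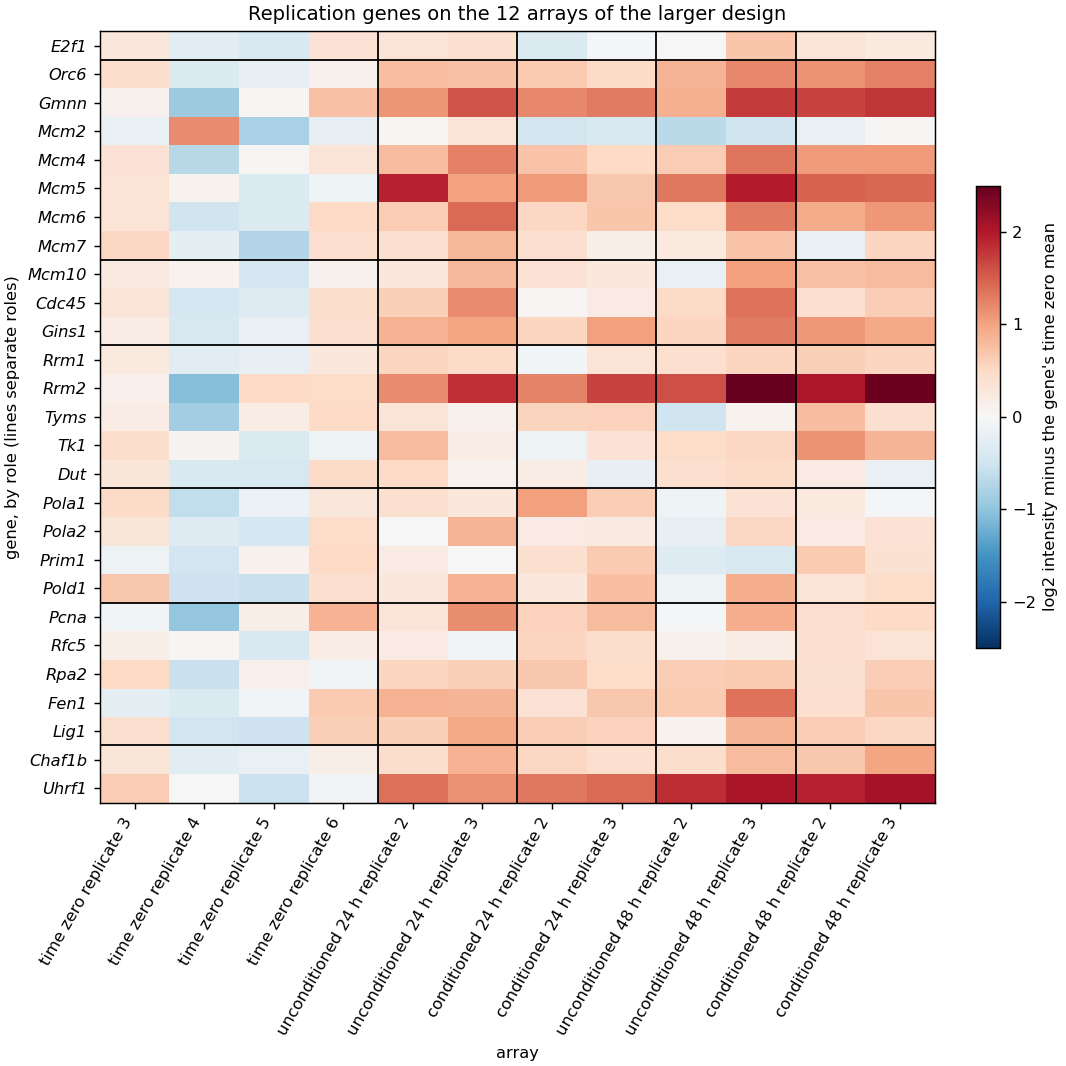
Log2 median-scaled intensity of the 27 tested replication genes (rows, grouped by role with lines between the roles) on the 12 arrays of the larger design (columns), minus each gene's mean over the 4 time zero arrays. Red is above and blue below that mean. The time zero replicates 4 and 5 are mostly blue, and Rrm2, Uhrf1, Mcm5 and Gmnn are the rows with the deepest red in the medium arrays.

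Against time zero, replication genes were higher in both media. The median change of the 27 genes was 0.43 in unconditioned medium and 0.35 in conditioned medium at 24 h, and 0.47 and 0.40 at 48 h, with 25, 21, 24 and 24 genes above the median of all probes. With 1 probe per gene chosen in the same way, 57.09%, 56.21%, 52.05% and 58.11% of 9953 genes were above it. These 4 comparisons share the 4 time zero arrays. Few single genes passed. At 24 h, Mcm5 passed in unconditioned medium (1 of 27, 3.7%, with 0.815% of all probes called) and Uhrf1 in conditioned medium (1 of 27, with 3.17% of all probes called). At 48 h, Mcm5, Rrm2 and Uhrf1 rose in unconditioned medium (3 of 27, 11.1%, with 2.9% of all probes called), and Gmnn, Mcm5, Orc6, Rrm2 and Uhrf1 rose in conditioned medium (5 of 27, 18.5%, with 6.47% of all probes called). No gene fell. An unadjusted p under 0.05 was found for 12, 6, 10 and 11 genes in these comparisons in the order given, and for 9.88%, 15.3%, 13.5% and 19.3% of all probes.

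The number of calls depended on how arrays were brought to one scale. Under quantile normalization there were 3 calls in unconditioned (2.3% of all probes called) and 2 in conditioned medium (8.43%) at 24 h. The calls at 48 h were 11 in unconditioned (40.7%, with 9.93% of all probes called) and 9 in conditioned medium (33.3%, with 13% of all probes called), all of them higher than time zero. At 48 h Mcm4, Mcm6, Gins1 and Chaf1b joined the calls in both media, and Gmnn, Orc6, Cdc45 and Fen1 in unconditioned medium. Without the 3 arrays that stood apart the counts at 48 h were 8 in unconditioned (6.82% of all probes called) and 7 in conditioned medium (17.3%). In simulated data with 200 of 23694 probes changed, the fit for conditioned medium at 48 h against time zero recovered 0% of the changes made 2-fold, 58% of those made 4-fold and 86.5% of those made 8-fold. The adjustment depends on how many probes change, and the real comparison called 1532. Orc6 passed there with a change of 1.03, so these shares do not carry over to it.

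The calls also depended on single arrays, and so did the share of all probes called. In unconditioned medium at 48 h that share was 3.17% without time zero replicate 6, against 2.9% with all arrays. At 24 h the call of Mcm5 was lost without unconditioned replicate 2 or 3 (adjusted p = 0.536 and 0.122, limma) and without time zero replicate 5 or 6 (0.137 and 0.0521), and the call of Uhrf1 without conditioned replicate 2 or 3 (0.279 and 0.366) and without time zero replicate 5 (0.0663). In unconditioned medium at 48 h, Rrm2 and Mcm5 were lost without replicate 3 (0.142 and 0.139), which left 1 call, and 5 genes were called without time zero replicate 6. In conditioned medium at 48 h, Gmnn, Mcm5 and Orc6 were lost without replicate 2 (0.111, 0.167 and 0.194), which left 2 calls. Without replicate 3 Rrm2 was lost as well (0.122), which left 1 call, and Orc6 was lost without time zero replicate 5 (0.0535). Uhrf1 at 48 h was called under 19 of 19 alternatives in conditioned medium. In unconditioned medium it was called under 18 of 19, and the exception was a fit of only the groups compared (adjusted p = 0.0574), in which no gene was called there.

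**Figure D2:**
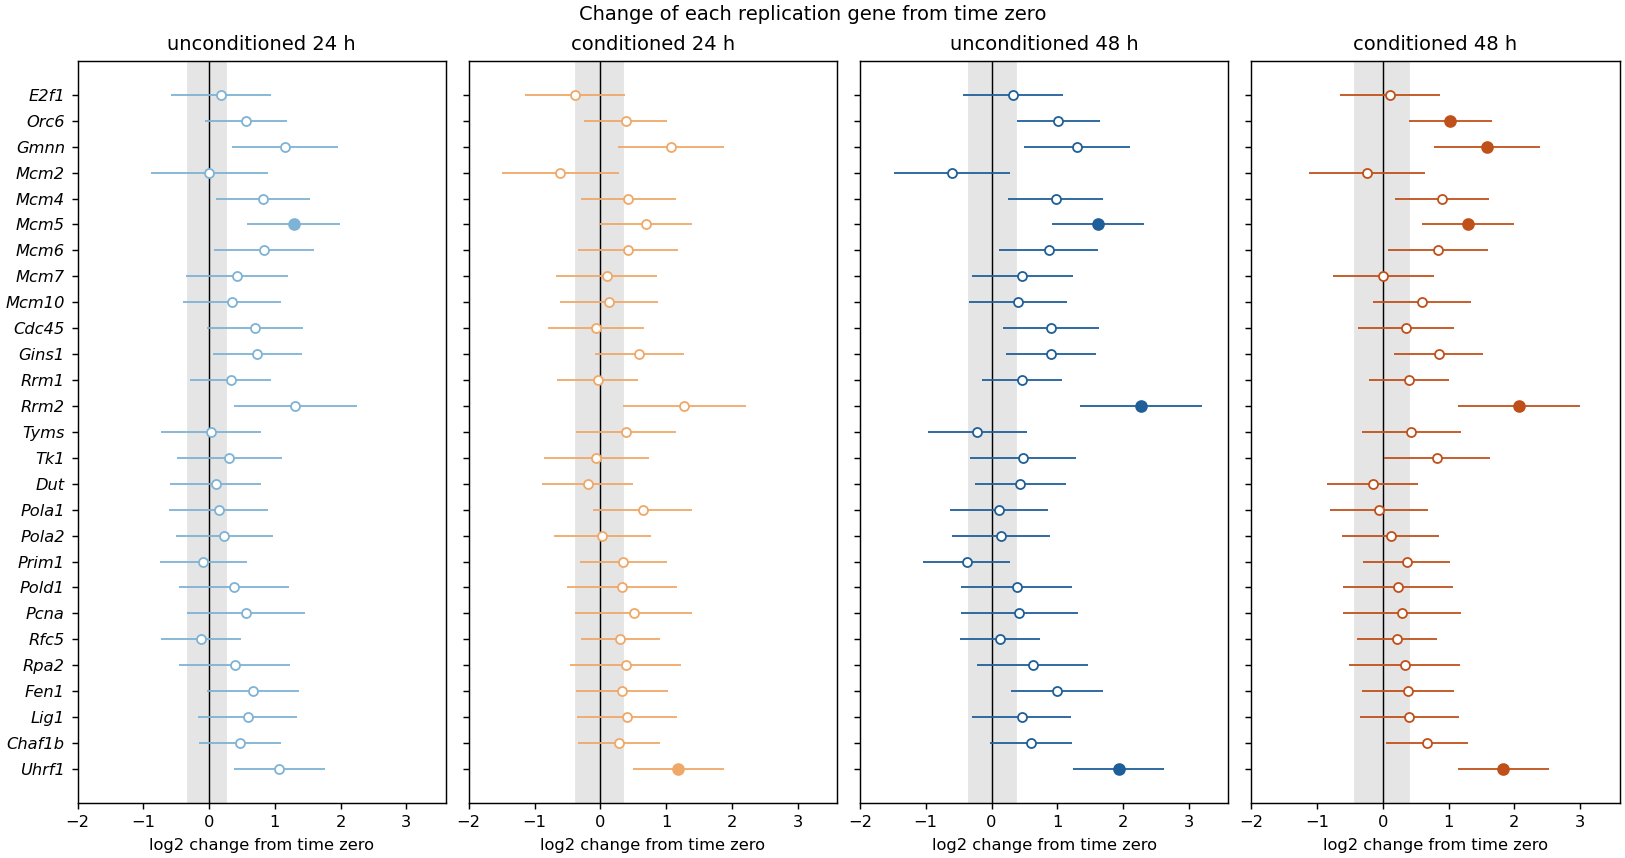
Log2 change of each tested replication gene from time zero (points) with its 95% interval (lines), 1 panel for each medium and time, with the median of all probes at 0. Filled points passed an adjusted p under 0.05, and the grey band spans the middle 50% of all probes. Most points lie to the right of 0 in all 4 panels, and Rrm2 and Uhrf1 lie furthest right at 48 h.

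Groups that did not overlap were common. In 15 of 27 genes both unconditioned arrays at 24 h were above all 4 time zero arrays (13% of all probes), and in 13 of 27 both conditioned arrays at 24 h (19.3%), both unconditioned arrays at 48 h (8.28%) and both conditioned arrays at 48 h (22.4%). In 8 genes all 8 medium arrays were above all 4 time zero arrays, against 3.9% of all probes, and in none were they all below (0.57% of all probes). These were Orc6, Gmnn, Mcm4 and Mcm5 of licensing, Gins1 of the helicase activators, Rrm2 of nucleotide supply, and Chaf1b and Uhrf1, which act on newly copied chromatin.

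Licensing factors were higher in both media. Median changes of the 7 genes tested were 0.82 in unconditioned medium and 0.42 in conditioned medium at 24 h and 0.98 and 0.90 at 48 h, with 7, 6, 6 and 6 genes above the median of all probes.

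Mcm5, a subunit of the helicase ring, had intensities of 256, 214, 159.6 and 188 at time zero. In unconditioned medium the 24 h arrays had 767 and 406 and the 48 h arrays 499 and 783, and in conditioned medium they had 420.1 and 323 and then 557 and 548. The lowest medium array was above the highest time zero array. Mcm5 rose by 1.28 ± 0.33 (adjusted p = 0.0462, limma) in unconditioned medium at 24 h, by 1.62 ± 0.33 (adjusted p = 0.0101) in unconditioned and 1.29 ± 0.33 (adjusted p = 0.0126) in conditioned medium at 48 h. In conditioned medium at 24 h the change was 0.69 ± 0.33 (adjusted p = 0.196). A second Mcm5 probe gave smaller values and passed in none of them, with changes of 0.88, 0.31, 0.54 and 0.89 for unconditioned and conditioned medium at 24 h and at 48 h.

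Gmnn encodes geminin, which binds Cdt1 and prevents a second round of licensing. Its intensities were 543, 272, 519 and 829 at time zero, 1085 and 1502 in unconditioned medium and 1160 and 1238 in conditioned medium at 24 h, and 928 and 1681 in unconditioned medium and 1626 and 1743 in conditioned medium at 48 h. Time zero replicate 4 was the lowest array and replicate 6 came close to unconditioned 48 h replicate 2, yet the groups did not overlap. Gmnn rose by 1.58 ± 0.38 (adjusted p = 0.00946, limma) in conditioned medium at 48 h. At 48 h in unconditioned medium the change was 1.30 ± 0.38 (adjusted p = 0.0807), and it was 1.16 ± 0.38 and 1.07 ± 0.38 in unconditioned and conditioned medium at 24 h (adjusted p = 0.142 and 0.0918).

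Orc6, the smallest subunit of the origin recognition complex, had intensities of 671, 389, 427 and 533 at time zero. They were 832 and 825 in unconditioned medium and 773 and 691 in conditioned medium at 24 h, and 890 and 1136 in unconditioned medium and 1072 and 1184 in conditioned medium at 48 h. All arrays at 48 h were above all at 24 h, and those above all at time zero. Orc6 rose by 1.03 ± 0.30 (adjusted p = 0.0217, limma) in conditioned medium at 48 h, and in unconditioned medium the change was nearly the same size, 1.01 ± 0.30, with an adjusted p of 0.0799.

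Mcm2, another helicase subunit, did not follow Mcm5. Its intensities were 165, 428, 107 and 164 at time zero, 195 and 236 in unconditioned medium and 136 and 144 in conditioned medium at 24 h, and 117 and 133 in unconditioned medium and 166 and 190.3 in conditioned medium at 48 h. Time zero replicate 4 was the highest of all 12 arrays, unlike in the other genes, and each medium group overlapped time zero. Conditioned arrays were below unconditioned ones at 24 h and above them at 48 h, which carries little weight with 2 arrays against 2. Its changes ran from -0.61 to 0.01 and none passed. Mcm7 had 3056, 1832, 1292 and 2859 at time zero, 2823 and 3774 in unconditioned medium and 2817 and 2369 in conditioned medium at 24 h, and 2527 and 3514 in unconditioned medium and 1873 and 3088 in conditioned medium at 48 h. Here too each medium group overlapped time zero, and the changes, from 0.01 to 0.47, did not pass. Mcm4 and Mcm6 changed by 0.98 and 0.87 in unconditioned and by 0.90 and 0.84 in conditioned medium at 48 h, with adjusted p between 0.0742 and 0.267, and both passed there under quantile normalization. A second Mcm6 probe gave smaller changes at 48 h, -0.15 and 0.47.

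E2f1, a transcription factor that drives many of these genes, had intensities of 126, 87.2, 80.5 and 134 at time zero, 132 and 137 in unconditioned medium and 81.1 and 101 in conditioned medium at 24 h, and 103 and 169 in unconditioned medium and 129.9 and 123 in conditioned medium at 48 h. Each medium group overlapped time zero. Its changes from time zero were 0.18, -0.39, 0.33 and 0.11 in that order, and none passed. A second E2f1 probe changed by 0.49, -0.28, 1.28 and -0.24, and none of these passed either.

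Of the helicase activators, Gins1 lay above time zero in both media and Cdc45 in unconditioned medium, and neither passed. Gins1, a subunit of the GINS complex, changed by 0.73 and 0.59 in unconditioned and conditioned medium at 24 h and by 0.91 and 0.85 at 48 h, with all medium arrays above time zero and adjusted p from 0.0724 to 0.281. Cdc45, which travels with the helicase, had 906, 534, 581 and 989.9 at time zero, 1098 and 1646 in unconditioned medium and 740.1 and 836 in conditioned medium at 24 h, and 1008 and 1852 in unconditioned medium and 974 and 1110 in conditioned medium at 48 h. All 4 unconditioned arrays were above time zero, while the conditioned arrays overlapped it. The changes were 0.70 ± 0.35 and 0.90 ± 0.35 in unconditioned and -0.07 ± 0.35 and 0.35 ± 0.35 in conditioned medium, and none passed. Mcm10, which helps the helicase start unwinding, had 201, 182, 129 and 186 at time zero, 206 and 303 in unconditioned medium and 220.2 and 207 in conditioned medium at 24 h, and 151 and 350.3 in unconditioned medium and 284 and 295 in conditioned medium at 48 h. Unconditioned 48 h replicate 2 lay among the time zero arrays and the other medium arrays above them. Its changes ran from 0.13 to 0.59 without passing.

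In nucleotide supply, median changes of the 5 genes were 0.31 and -0.04 in unconditioned and conditioned medium at 24 h and 0.46 and 0.43 at 48 h. Above the median of all probes were 5, 2, 4 and 4 genes, and 1 gene stood far above the others in its change. Rrm2, the regulated subunit of ribonucleotide reductase, which makes the building blocks of DNA, had intensities of 124, 54.6, 160 and 156 at time zero. They were 258 and 402 in unconditioned medium and 269 and 366 in conditioned medium at 24 h, and 349.8 and 875 in unconditioned medium and 460.4 and 627 in conditioned medium at 48 h. Every medium array was above every time zero array. Rrm2 rose by 2.27 ± 0.44 (adjusted p = 0.00695, limma) in unconditioned and 2.07 ± 0.44 (adjusted p = 0.00428) in conditioned medium at 48 h, which is 4.82-fold and 4.21-fold. At 24 h the changes were 1.31 ± 0.44 and 1.28 ± 0.44 and did not pass (adjusted p = 0.162 and 0.0887).

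Rrm1, the large subunit of the same enzyme, had 2865, 1988, 2106 and 2914 at time zero, 3551 and 3393 in unconditioned medium and 2321 and 3090 in conditioned medium at 24 h, and 3242 and 3520 in unconditioned medium and 3653 and 3527 in conditioned medium at 48 h. Its changes, between -0.04 and 0.46, did not pass, although both groups at 48 h lay above time zero. A second Rrm1 probe changed by -0.80, 0.09, 0.11 and 0.23 for unconditioned and conditioned medium at 24 h, then 48 h. Tyms, thymidylate synthase, had 352, 169.5, 354 and 437 at time zero, 387 and 335 in unconditioned medium and 458 and 463 in conditioned medium at 24 h, and 218 and 332 in unconditioned medium and 533 and 411 in conditioned medium at 48 h. The unconditioned arrays lay within the time zero range and 3 of the 4 conditioned arrays above it. Tk1, thymidine kinase of S phase cells, had 100.1, 76.8, 56.9 and 67.0 at time zero, 128 and 84.2 in unconditioned medium and 67.6 and 94.8 in conditioned medium at 24 h, and 101 and 106 in unconditioned medium and 161 and 132 in conditioned medium at 48 h. Both groups at 48 h lay above time zero, with changes of 0.48 and 0.83 that did not pass. A second Tk1 probe gave 1.01, 0.90, 1.01 and 1.36 in the order of the 4 comparisons, the last with an adjusted p of 0.0649. Dut, which removes dUTP, changed by -0.19 to 0.44 and overlapped time zero in all groups. A second Dut probe was below the median of all probes in the 4 comparisons, at -0.14, -0.63, -0.23 and -0.59.

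Of the polymerase genes 4 were tested, and none of them passed in any comparison with time zero. Their median changes were 0.19 and 0.34 in unconditioned and conditioned medium at 24 h and 0.13 and 0.18 at 48 h. Over all 27 genes the medians were 0.43, 0.35, 0.47 and 0.40, so the polymerase median was close to them only in conditioned medium at 24 h. Pola1, the catalytic subunit of polymerase alpha, had 181, 84.5, 117 and 157 at time zero, 171 and 155 in unconditioned medium and 264 and 199 in conditioned medium at 24 h, and 120.1 and 166 in unconditioned medium and 154 and 126 in conditioned medium at 48 h. Conditioned medium at 24 h was the only group above all time zero arrays (change 0.64 ± 0.36, adjusted p = 0.275). Pold1, the catalytic subunit of polymerase delta, had 1083, 475, 461 and 914 at time zero, 815 and 1250 in unconditioned medium and 817 and 1152 in conditioned medium at 24 h, and 627 and 1278 in unconditioned medium and 858 and 938 in conditioned medium at 48 h. The groups overlapped and the changes lay between 0.23 and 0.38. Of 2 further Pold1 probes, 1 gave 0.31, 0.14, 0.10 and 0.12 in the order of the 4 comparisons and the other went the opposite way, with -0.65, -0.63, -0.54 and -0.64. Pola2, a second subunit of polymerase alpha, changed by 0.03 to 0.23.

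The clamp, its loader and the enzymes that finish the strands were higher, with median changes of 0.56, 0.39, 0.46 and 0.33 over 5 genes, and none passed. Pcna, the sliding clamp, had 1160, 617, 1361 and 2200 at time zero, 1515 and 2723 in unconditioned medium and 1811 and 2100 in conditioned medium at 24 h, and 1169 and 2284 in unconditioned medium and 1613 and 1711 in conditioned medium at 48 h. Time zero replicate 6 was above 6 of the 8 medium arrays, so that Pcna, a protein often stained to mark cycling cells, did not separate the groups. Its changes ran from 0.29 ± 0.42 to 0.56 ± 0.42. Fen1, which trims flaps between Okazaki fragments, had 1532, 1436, 1727 and 2846 at time zero, 3330 and 3247 in unconditioned medium and 2323 and 2890 in conditioned medium at 24 h, and 2872 and 4637 in unconditioned medium and 2399 and 2925 in conditioned medium at 48 h. Each unconditioned array was above all time zero arrays, with changes of 0.67 ± 0.33 and 1.00 ± 0.33 (adjusted p = 0.356 and 0.135). Lig1, the ligase that joins the fragments, had 3134, 1721, 1679 and 3602 at time zero, 3612 and 4624 in unconditioned medium and 3648 and 3547 in conditioned medium at 24 h, and 2523 and 4335 in unconditioned medium and 3651 and 3435 in conditioned medium at 48 h. Its changes ran from 0.40 to 0.59. Rfc5, a clamp loader subunit, and Rpa2, a subunit of the protein that covers single-stranded DNA, changed by -0.12 to 0.62.

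Uhrf1, which binds hemimethylated DNA behind the fork and brings in the maintenance methyltransferase, had the smallest adjusted p of the 27 genes. Its intensities were 161, 103, 71.3 and 98.8 at time zero, 269.9 and 228 in unconditioned medium and 259 and 276 in conditioned medium at 24 h, and 376 and 428 in unconditioned medium and 393 and 439 in conditioned medium at 48 h. The 3 times formed 3 ranges that did not overlap, and within each time the media overlapped. Uhrf1 rose by 1.94 ± 0.33 (adjusted p = 0.00271, limma) in unconditioned and 1.84 ± 0.33 (adjusted p = 0.000925) in conditioned medium at 48 h, and by 1.18 ± 0.33 (adjusted p = 0.0283) in conditioned medium at 24 h. In unconditioned medium at 24 h the change was 1.07 ± 0.33 (adjusted p = 0.099). A second Uhrf1 probe did not show this, with changes of 0.75 and 0.24 at 48 h (adjusted p = 0.431 and 0.651) and 0.96 and -0.02 at 24 h. Chaf1b, a subunit of the factor that deposits histones on new DNA, changed by 0.47, 0.28, 0.60 and 0.67, with all medium arrays above time zero, and did not pass.

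**Figure D3:**
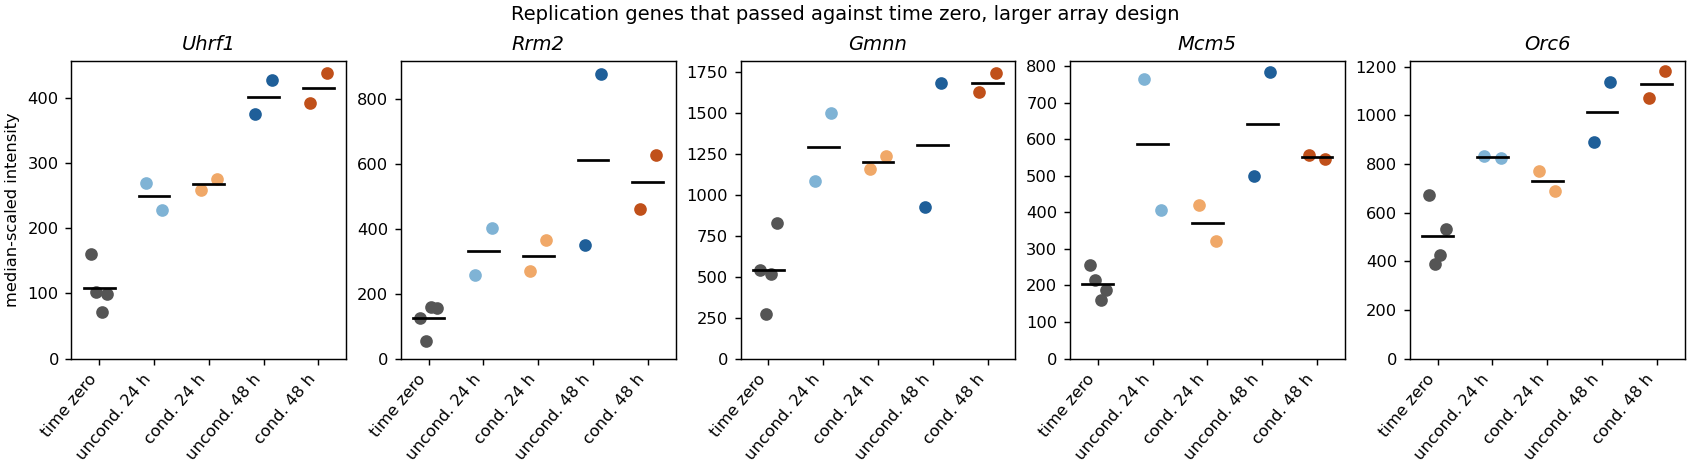
Median-scaled intensity (vertical axis, linear, from 0) of the 5 replication genes that passed against time zero, for each array of the larger design (points, 4 at time zero and 2 in each other group), with the group mean as a line. In all 5 genes every medium array lies above every time zero array, and the unconditioned arrays at 48 h lie further apart than the conditioned ones.

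Conditioned medium was then set against unconditioned medium, the comparison that holds time constant. No replication gene passed with both times pooled (0 of 27, with 0.92% of all probes called), at 24 h (0.245% of all probes) or at 48 h (0.148%), and 1, 0 and 1 genes had an unadjusted p under 0.05 in limma (11%, 5.29% and 8.69% of all probes). The median change was -0.12 with times pooled, -0.20 at 24 h and -0.09 at 48 h, with 5, 5 and 8 of 27 genes above the median of all probes. With 1 probe per gene, 55.19%, 51.04% and 57.29% of 9953 genes were above it. Over both times the 95% intervals of 19 genes lay within a 2-fold difference in either direction, and they reached 0.49 to 0.76 on the log2 scale to either side of the change. In simulated data with 200 probes changed, this comparison recovered 0% of 2-fold and 76% of 4-fold changes.

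The genes with the smallest p went opposite ways. Prim1, the catalytic subunit of primase, had 226, 179, 267 and 349.6 at time zero, 286 and 248 in unconditioned medium and 329 and 391 in conditioned medium at 24 h, and 198 and 187 in unconditioned medium and 393 and 324 in conditioned medium at 48 h. All 4 conditioned arrays were above all 4 unconditioned arrays, with a change of 0.58 ± 0.26 (adjusted p = 0.315, limma). Tyms (0.49 ± 0.29) and Rfc5 (0.24 ± 0.23) were the other genes whose conditioned arrays all lay above the unconditioned ones, as did 8.63% of all probes, and no gene lay below in this way (2.78% of all probes). Cdc45, with the values given above, was lower in conditioned medium by all arrays at 24 h, which carries little weight with 2 arrays against 2. At 48 h its unconditioned replicate 2 lay between the conditioned arrays. Its change was -0.67 ± 0.28 with times pooled (adjusted p = 0.472), -0.78 ± 0.40 at 24 h and -0.57 ± 0.40 at 48 h. With times pooled, Cdc45 was called under 5 of 21 alternatives and did not pass under the others. This gene was called lower in conditioned medium over both times under quantile normalization (-0.71, adjusted p = 0.0118, with 3.88% of all probes called), cyclic loess normalization (-0.70, adjusted p = 0.00407, with 6.92% of all probes called), scaling to the 75th percentile (-0.67, adjusted p = 0.0328, with 3.78% of all probes called) and without the 3 arrays that stood apart (-0.78, adjusted p = 0.0145, with 7.8% of all probes called).

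For the genes that rose from time zero no difference between the media passed. The change of conditioned against unconditioned medium over both times was -0.01 ± 0.27 for Uhrf1, 0.08 ± 0.31 for Gmnn, -0.09 ± 0.24 for Orc6, -0.13 ± 0.36 for Rrm2 and -0.47 ± 0.27 for Mcm5. Intervals reached from -0.57 to 0.56 for Uhrf1 and from -0.89 to 0.63 for Rrm2. The second Uhrf1 probe was at -0.76 (95% interval -1.43 to -0.09, adjusted p = 0.452) and the second E2f1 probe at -1.16 (-2.02 to -0.29, adjusted p = 0.314), and neither passed. In all, 13 further probes of 11 of the genes were tested, and none passed in any comparison.

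**Figure D4:**
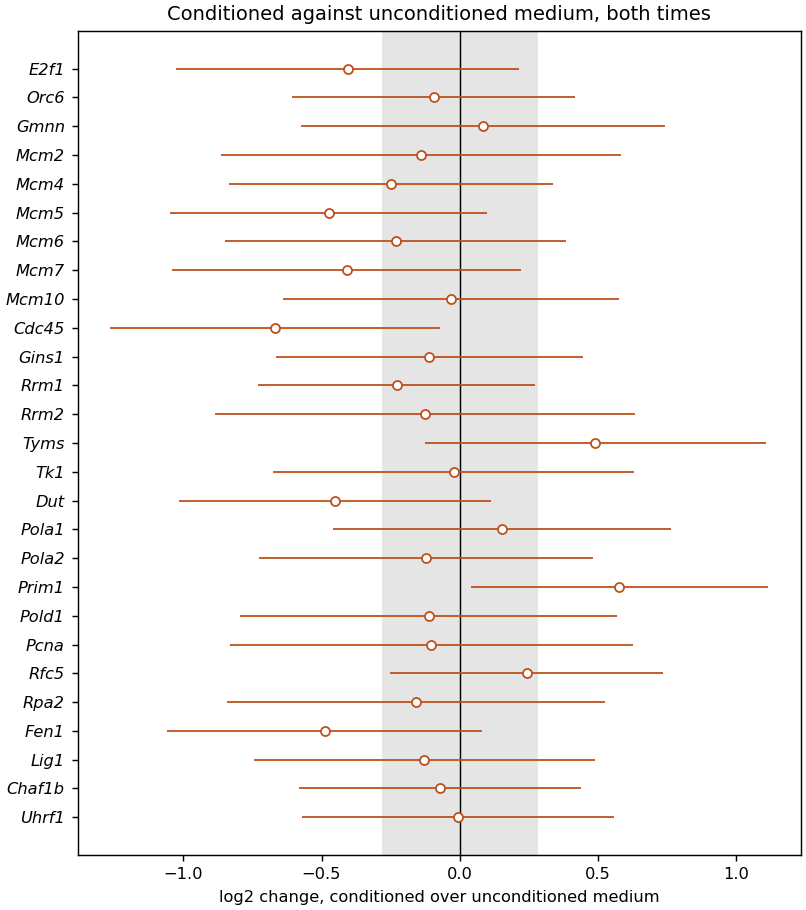
Log2 change of each tested replication gene between conditioned and unconditioned medium over both times, 4 arrays against 4 (points), with its 95% interval (lines), with the median of all probes at 0. Open points did not pass, and the grey band spans the middle 50% of all probes. Of the 27 points 22 lie to the left of 0, with Cdc45 furthest left and Prim1 furthest right.

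Time within the media and its interaction with the medium were tested in the same fit. Between 48 h and 24 h over both media no replication gene passed (0 of 27, with 0.0211% of all probes called), and Rrm2 and Uhrf1, with changes of 0.87 ± 0.36 and 0.75 ± 0.27, had the smallest p (adjusted p = 0.988 and 0.973, limma). Of the 27 genes 2 had an unadjusted p under 0.05 (4.86% of all probes) and 18 were above the median of all probes. Orc6 and Uhrf1 were the genes whose 4 arrays at 48 h all lay above the 4 at 24 h (1.73% of all probes). Without the 3 arrays that stood apart, which left 1 array in unconditioned medium at 48 h, the Rrm2 change was 1.10. No gene passed for a difference of the medium effect between 48 h and 24 h (0 of 27, with 0% of all probes called, and 0 genes at an unadjusted p under 0.05, with 2.19% of all probes). Mcm2 and Tk1 had the smallest p there, at 0.95 ± 0.69 and 0.69 ± 0.62, both with an adjusted p of 1.

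The smaller design held 20 of the genes on 2 time zero arrays and 1 array of each medium and time, with no replicate check for the media and no test. Its intensities are on another scale and are compared with the larger design by direction only, and the labels do not say whether both designs used RNA of the same dishes. Of 16 genes above the intensity limit, 16 and 13 were above the median of all probes in unconditioned and conditioned medium at 24 h against time zero, and 14 and 12 at 48 h, with median changes of 0.40, 0.45, 0.41 and 0.39. Mcm5 had 161 and 109.6 at time zero and 389.6, 204, 357 and 381 in the media in the same order, which are changes of 1.55, 0.87, 1.35 and 1.78. Orc6 had 709 and 505 at time zero and 815, 753, 942 and 859 in the media. Both genes were above time zero on each of the 4 medium arrays, as on the larger design. Cdc45 had 823 and 1519 at time zero and 1679, 675, 2451 and 1154 in the media, so that conditioned was below unconditioned medium at both times, by changes of -1.03 and -0.71. Prim1 and Tyms were higher in conditioned medium at both times, by 0.46 and 0.57 and by 0.42 and 0.88. Rfc5 changed by -0.13 and 0.02. Of the 16 genes together, 7 were above the median of all probes in conditioned against unconditioned medium at 24 h (median change -0.13) and 9 at 48 h (median change 0.05), where the larger design had 8 of 27 and -0.09 at 48 h. The conditioned arrays of this design had quartile ratios of 16.6 and 16.4, against 40.5 and 54.1 in unconditioned medium and 27.2 and 44.4 at time zero. The part of this in the values of Cdc45, Prim1 and Tyms was not tested. Mcm4 differed between the time zero arrays by 4.94 on the log2 scale, with 1 of them at the lowest intensity used, so its change is not given.

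Of 56 further replication genes 37 were tested, a list of origin, kinase, polymerase, repair and histone-cycle genes. Their median changes against time zero were 0.32 and 0.26 in unconditioned and conditioned medium at 24 h and 0.27 and 0.36 at 48 h. None passed at 24 h, with 8 and 7 of 37 at an unadjusted p under 0.05 (9.88% and 15.3% of all probes). At 48 h, 2 of 37 passed in unconditioned medium (2.9% of all probes called) and 4 of 37 in conditioned medium (6.47%). At 48 h in unconditioned medium Top2a, the topoisomerase that untangles copied chromosomes, rose by 1.57 ± 0.35, and Ccna2, cyclin A of S and G2 phase, by 1.71 ± 0.36. In conditioned medium both rose as well (1.04 ± 0.35 and 1.41 ± 0.36), together with Nme1, a nucleoside diphosphate kinase (2.31 ± 0.45), and Dbf4, the activator of the Cdc7 kinase that fires origins (2.11 ± 0.58). None passed between conditioned and unconditioned medium over both times, where the median change was 0.03. There 1 of 37 had an unadjusted p under 0.05 (11% of all probes).

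Some markers of the cell types of the heart were called against time zero, and between the media only Cd74, of the leukocyte markers, was called. Fewer cells of a type and less RNA per cell cannot be told apart in these bulk samples. The summed intensity of 10 fibroblast markers ran from 2511 to 4457 at time zero, and from 6479 to 11210 in unconditioned and 5665 to 6446 in conditioned medium at 48 h, with Col1a1, Postn and Thy1 called in unconditioned and Postn in conditioned medium. Of these 10 markers Dcn, Fap, Tcf21, Lum and Pdgfra were below the intensity limit. The sum of 7 endothelial markers ran from 1199 to 1776 at time zero, and from 2389 to 3714 and 3085 to 3246 in unconditioned and conditioned medium at 48 h, and Tek, Vwf, Pecam1 and Tie1 rose in both media while Kdr fell. The sum of 7 smooth muscle and pericyte markers ran from 18090 to 32160 at time zero, and from 33220 to 44710 and 47140 to 49290 in unconditioned and conditioned medium at 48 h, with Cspg4 and Cnn1 called in both media. None of 10 cardiomyocyte markers was at the lowest intensity used on any array, and their sum ran from 148300 to 301200 at time zero, 178500 to 236800 in unconditioned and 211400 to 226600 in conditioned medium at 48 h. Myl7, the atrial myosin light chain, fell by 1.70 ± 0.31 in conditioned medium at 48 h against time zero. At 24 h the cardiomyocyte sum ran from 281700 to 299200 in unconditioned and from 206800 to 250300 in conditioned medium, and the smooth muscle and pericyte sum from 49410 to 56400 and from 34550 to 37780. Between the media at 24 h, the 10 cardiomyocyte markers were all below the median of all probes (median change -0.41) and so were 4 of 6 smooth muscle and pericyte markers (median change -0.67), with none called, alongside the median of -0.20 of the replication genes. At 48 h these medians were -0.07 and 0.16. The fibroblast sum at 24 h ran from 5251 to 6141 in unconditioned and from 4415 to 5962 in conditioned medium, the endothelial sum from 1811 to 2194 and from 1978 to 2171. The sum of 7 leukocyte markers, of which Lyz2 was at the lowest intensity used on all arrays, ran from 988.5 to 1575 at time zero, from 1130 to 2057 over the unconditioned and from 962.3 to 1109 over the conditioned arrays. Cd74, the invariant chain of antigen presentation, was called lower in conditioned than in unconditioned medium over both times (-3.79 ± 0.54). The part of these cells in the replication gene values was not tested.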

How the data were processed

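The deposited values are linear intensity of 1-colour arrays, with biotin-labelled RNA prepared with a CodeLink reagent kit, per the labels' protocols. How they were scanned, corrected for background or normalized is not given in the sources used here. The larger design holds 33849 probes on 12 arrays (time zero replicates 3 to 6, replicates 2 and 3 of each medium group), the smaller 9906 probes on 6, and the number of arrays limits the precision. Genes were named from the platform annotation, using probes with 1 gene symbol.

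Arrays were scaled to the median of their table (96.84 in the larger), floored at 0.05 of it, and taken to log2. The dimmest probes, by mean up to the 30th percentile, were not tested, leaving 23694. All 5 groups of the larger design were fitted by limma (version 3.58.1, R 4.3.3; lmFit, then eBayes with trend; 7 residual and 10.45 prior degrees of freedom), with Benjamini-Hochberg adjustment over all probes. Scripts ran in Python 3.11.15, with matplotlib 3.10.9 for figures, and the fit was tested on simulated data.

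The genes, lists and tests were chosen with earlier results of these data known. Full values are given for up to 6 called genes with the smallest p in each comparison, or the 2 smallest where none was called, and for a set of genes named by role. The alternatives were other scalings, filters, floors, weights, probe rules and arrays left out. Leaving out time zero replicates 4 and 5 alone, and quantile normalization without the 3 arrays that stood apart, were added after the data were seen.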

Additional observations from a re-analysis of the deposited data

How the results depend on the processing

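Over 19 alternatives for each comparison with time zero, the median change of the replication genes stayed positive (0.40 to 0.58 and 0.25 to 0.45 in unconditioned and conditioned medium at 24 h, 0.43 to 0.64 and 0.33 to 0.52 at 48 h), and over 21 for conditioned against unconditioned medium it stayed negative (-0.20 to -0.07). Of 173 recomputed counts of called genes, 120 stayed within 1.5 times the reported count. These include the comparisons between the media and between the times, where the reported count was 0 and mostly stayed 0. The total therefore does not describe how stable the calls against time zero were. In the order unconditioned and conditioned at 24 h, then at 48 h, against time zero, and with the share of all probes called in parentheses, counts were 3, 2, 11 and 9 with quantile normalization (2.3%, 8.43%, 9.93% and 13%), 6, 3, 11 and 9 with cyclic loess (3.29%, 11.1%, 12.6% and 17%), 4, 3, 10 and 9 with quantile normalization without the 3 arrays that stood apart (3.65%, 12.2%, 8.92% and 20%), and 2, 3 and 8 for the first 3 without those arrays alone (2.7%, 9.83% and 6.82%). Scaling to the 75th percentile gave 2, 11 and 9 for the last 3 (8.1%, 8.89% and 12.7%). Without a filter on level they were 0, 0 and, for conditioned medium at 48 h, 3 (0.189%, 1.14% and 2.8%). A filter at the 50th percentile gave 2 for conditioned medium at 24 h (5.17%). Array weights gave 2 and 4 at 24 h (1.57% and 13.1%) and 11 for conditioned medium at 48 h (20.7%). A fit of only the groups compared gave 0, 0 and 0 for the first 3 (0.57%, 2.11% and 0.696%), averaging the probes of a gene 0 and 0 at 24 h (0.702% and 3%), and for unconditioned medium at 24 h a pseudocount of 0.5 of the median gave 0 (0.675%), as did leaving out time zero replicates 4 and 5 (0.882%). Leaving out 1 array at a time gave 0 to 2, 0 to 3, 1 to 5 and 1 to 7, and 0 in the other comparisons. Where this left 1 array in a group, that array was assumed to vary like the other groups. The share of all probes called moved as well. Without 1 of the time zero arrays it ran from 0.528% to 1.38% and from 2.29% to 5.08% in unconditioned and conditioned medium at 24 h. At 48 h it ran from 2.19% to 5.24% and from 4.78% to 8.15%.

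Conditioned against unconditioned medium over both times had 1 called gene with quantile, cyclic loess and 75th percentile scaling (3.88%, 6.92% and 3.78% of all probes called). At 24 h there was 1 with cyclic loess (2.42%). Without the 3 arrays, unconditioned medium at 48 h kept 1 array. The median change between the media over both times was then -0.20 under median scaling and under quantile normalization. Of 720 recomputed changes of single genes 639 kept direction and call, 35 lost and 10 gained the call, and 36 changed sign. All of these sign changes were between the media over both times, in genes with reported changes from -0.23 (Rrm1) to 0.08 (Gmnn). Tk1 came to 0.023 with quantile normalization, 0.0194 with cyclic loess, 0.0281 without a filter, 0.00395 with the pseudocount, 0.0661 without the 3 arrays, 0.0545 with probes averaged and 0.0442 with quantile normalization without the 3 arrays. Uhrf1 came to 0.00306 with cyclic loess, 0.0448 without a filter, 0.0136 with a floor of 0.2 of the median, 0.0153 with the pseudocount, 0.0526 without the 3 arrays and 0.0546 with quantile normalization as well. Mcm10 came to 0.0163 with quantile normalization and 0.0194 without a filter, Gmnn to -0.0239 without the 3 arrays and -0.0175 with quantile normalization as well, and Rrm1 to 0.14 with probes averaged. With 1 array left out, Tk1 ran from -0.19 to 0.16, Uhrf1 from -0.083 to 0.0858, Mcm10 from -0.23 to 0.16, Gmnn from -0.0256 to 0.19, Rrm2 from -0.35 to 0.0901, Pold1 from -0.27 to 0.0312 and Pcna from -0.28 to 0.0923. The cause of these changes was not tested. No paired analysis was possible because the replicate numbers follow the order of the samples and pair none of them. No tested gene was at the floor on any array, 26 of 27 passed a filter at the 50th percentile of level, and the 2 arrays in each medium group limit the precision.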
